A study of Homo sapiens with 8 samples.

Results

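The transcripts of 10 genes that report on the ERK pathway were followed in 143B osteosarcoma cells after transfection with a NELL1 knockout plasmid. The genes were DUSP4, DUSP5, DUSP6, SPRY2, SPRY4, SPRED1, SPRED2, ETV4, ETV5 and PHLDA1. The rule that names them uses knowledge of ERK feedback and output genes and no measured value, but the choice was made with earlier results of these data known. All 10 were found among the 54174 gene symbols of the deposited table, all 10 had a value in every library, and all 10 were among the 9016 genes tested. The comparison was between 4 libraries labelled NELL1 knockout, from 143B cells harvested 48 h after transient transfection with the NELL1KO plasmid, and 4 libraries labelled control, from 143B cells harvested 48 h after transfection with the vector plasmid. Both groups are the same cell line and both were transfected, and the labels name no step that selected or cloned the transfected cells. NELL1 encodes a secreted matrix protein, and by its title the study concerned the matrisome of osteosarcoma. Values are quantile-normalised log2 expression values, so a difference of 1 is a doubling relative to the other genes.

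In the ERK cascade, growth factor receptors load RAS with GTP, RAS activates RAF kinases, RAF activates MEK, and MEK phosphorylates the ERK kinases. Active ERK raises the transcription of its own inhibitors: dual-specificity phosphatases (DUSPs) remove the activating phosphates from ERK, and Sprouty and SPRED proteins act further up, at the level of RAS and RAF. ETV4 and ETV5 are ETS-family transcription factors whose transcripts follow ERK output, in part through relief from the repressor capicua (CIC). For these reasons the level of such transcripts is widely used as an indirect readout of ERK signalling, and ERK phosphorylation itself was not measured here.

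The promoters of 3 of the genes are shown because these genes had different patterns across the libraries. DUSP6 had the largest change, which lay in knockout libraries 1 and 2. SPRED1 was also low in those libraries but was above every control in knockout libraries 3 and 4. PHLDA1 was low in knockout libraries of all replicate numbers relative to same-numbered controls. Each sequence is the RefSeq promoter window of GRCh38.p14, from 250 bases before to 50 bases after the transcript start, written 5′ to 3′ along the gene. Capitals mark each match to the ETS-type motifs CGGAAG and AGGAAG, searched on both strands, so that a match on the opposite strand reads CTTCCG or CTTCCT.
DUSP6, chr12:89352452-89352751, minus strand: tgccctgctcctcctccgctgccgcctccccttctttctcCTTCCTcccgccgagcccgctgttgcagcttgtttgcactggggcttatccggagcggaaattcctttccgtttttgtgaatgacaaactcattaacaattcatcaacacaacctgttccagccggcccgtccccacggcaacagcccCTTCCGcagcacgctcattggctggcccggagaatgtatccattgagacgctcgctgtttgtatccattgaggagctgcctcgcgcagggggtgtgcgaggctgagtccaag
SPRED1, chr15:38252586-38252885, plus strand: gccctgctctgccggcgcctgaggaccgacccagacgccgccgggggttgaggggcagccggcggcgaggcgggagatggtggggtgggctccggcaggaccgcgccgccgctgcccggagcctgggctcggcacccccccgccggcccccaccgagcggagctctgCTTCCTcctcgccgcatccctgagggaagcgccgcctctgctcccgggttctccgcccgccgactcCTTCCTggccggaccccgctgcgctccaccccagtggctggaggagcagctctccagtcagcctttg
PHLDA1, chr12:76031727-76032026, minus strand: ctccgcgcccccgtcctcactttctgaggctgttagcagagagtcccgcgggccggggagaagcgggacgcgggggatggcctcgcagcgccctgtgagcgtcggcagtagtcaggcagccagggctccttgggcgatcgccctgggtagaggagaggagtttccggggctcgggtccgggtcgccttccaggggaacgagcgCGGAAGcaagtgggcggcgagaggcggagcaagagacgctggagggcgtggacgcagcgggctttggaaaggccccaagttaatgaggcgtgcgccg
In the DUSP6 window the matches begin at -210 and -62 relative to the start. They begin at -83 and -17 in SPRED1 and at -47 in PHLDA1. CGGAAG was found in 19.5% and AGGAAG in 33.6% of all 35116 promoter windows of this length. Promoter windows were found for 6 of the 10 genes (DUSP6, SPRY2, SPRY4, SPRED1, SPRED2 and PHLDA1), 9 windows in all, of which 3 held CGGAAG and 7 held AGGAAG. SPRY2 and SPRED2 gave several windows each, and by gene 3 of the 6 held CGGAAG and 4 of the 6 held AGGAAG. The AP-1 motif TGANTCA, present in 7.71% of all windows, was found only in a window of SPRED2. The CRE motif TGACGTCA (1.85% of all windows) and the capicua octamers TGAATGAA (1.65%) and TGAATGGA (1.03%) were not found in these 9 windows. CGGAAG and AGGAAG share the letters GGAAG but cannot match at the same place, and a match is a description of the letters only.

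The targeted gene did not check the labels. NELL1 was near the bottom of the measured range, at -6.97 to -4.53 in the 4 control libraries and at -6.96 to -4.82 in 3 knockout libraries, with a blank cell in knockout library 3. The groups overlapped, with a difference of means of -0.01 (two-sided exact permutation, p = 1 where 0.0286 is the smallest p that 35 splits allow). The knockout libraries fell into close pairs: when any pair of libraries was subtracted gene by gene, the SD over tested genes was 0.12 to 0.13 for knockout libraries 1 and 2 and for 3 and 4, and 0.46 to 0.50 across those pairs. In the controls it was 0.10 to 0.29. Because of this, log2 fold changes within replicates 1 and 2 and within replicates 3 and 4 are given beside those over all libraries. Of the 8 mesenchymal and osteoblast markers checked, VIM (10.2 to 10.9), CD44 (5.27 to 6.22) and SPARC (5.23 to 6.15) were high, RUNX2 was 0.05 to 0.43, ALPL and COL1A1 were below 1 in every library, and COL1A2 had a value in 4 libraries, at -4.82 or below. The blood markers PTPRC, CD3E and HBB had no value in any library, and the endothelial markers PECAM1, VWF and CDH5 were at -3.31 or below. CD68 (5.54 to 5.90) and EPCAM (1.83 to 2.76) had values in all 8 libraries and neither passed the test between the groups. The other epithelial markers checked were low: KRT19 had values in 6 libraries, from -5.72 to -2.85, and CDH1 in 2, from -7.49 to -7.40. VIM (-0.43) and S100A4 (-0.56) were lower and SPARC (0.62) was higher in the knockout libraries (limma adjusted p = 0.0425, 0.0347 and 0.0294). VIM was not called with the replicate block (limma adjusted p = 0.0507), and none of the 3 was with averaged knockout pairs (0.132, 0.0860 and 0.155). The part of this shift in the results below was not tested.

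Over all 8 libraries, none of the 10 feedback genes differed between knockout and control past the threshold (limma, Benjamini-Hochberg adjusted p under 0.05 over 9016 genes). The background share was 13.1% of all tested genes. At an unadjusted p under 0.05 limma gave 1 of 10, ETV5, against 29.7% of all tested genes. Of the 10 log2 fold changes 9 were below 0, with a median of -0.13, against 48.7% below 0 and a median of 0.01 over all tested genes. Groups were fully apart, with no overlap of their values, for 1 of the 10 (ETV5) and for 22.9% of all tested genes. For each of the 10 genes the SD among the knockout libraries was larger than that among the controls. The share of all tested genes with this order was not computed, so it is not read as particular to the 10. Over all tested genes, libraries of different replicate sets differed by an SD of 0.46 to 0.50 within the knockouts and of 0.13 to 0.29 within the controls.

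**Figure D1:**
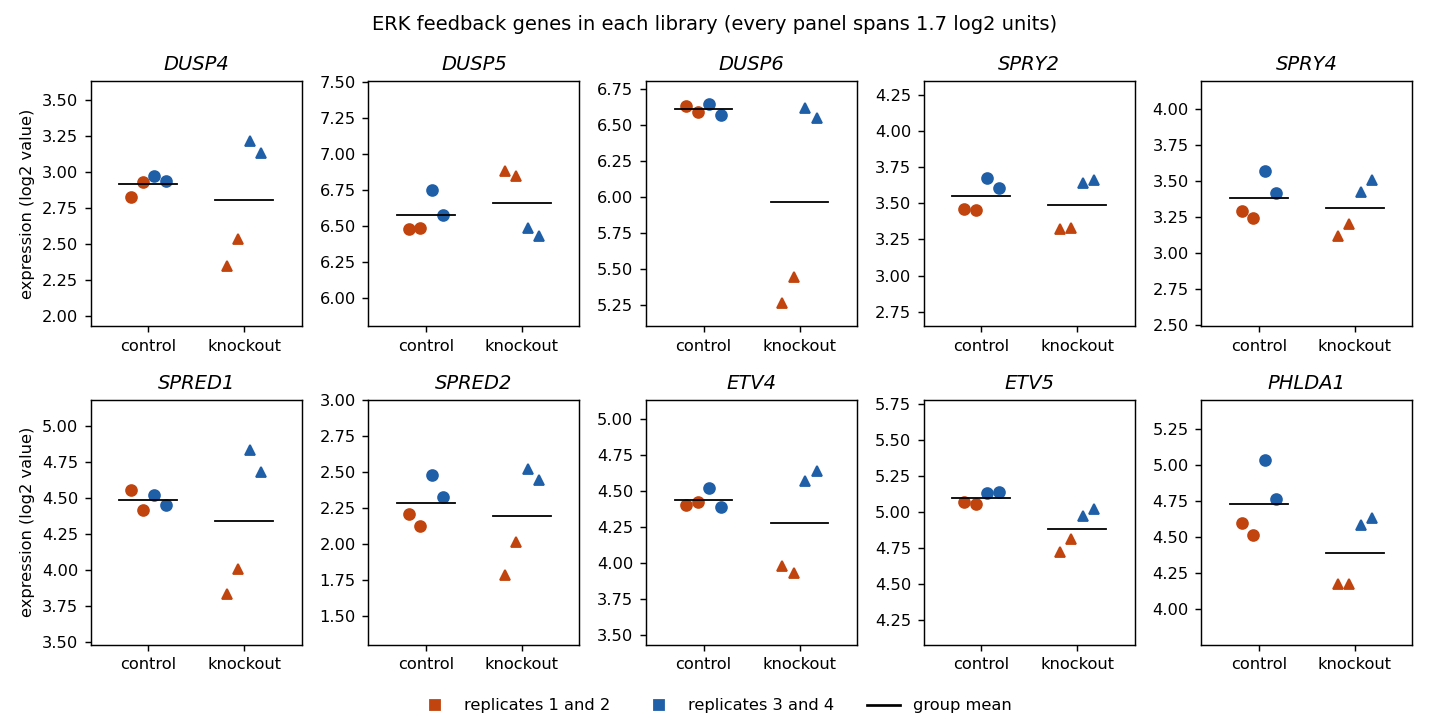
Expression of each ERK feedback gene in each library, as deposited log2 values (vertical axis, 1.7 log2 units in every panel), with controls as circles, knockouts as triangles and group means as lines. Knockout libraries 1 and 2 lie below the 6 other libraries in 9 of the 10 panels, by the widest gap for DUSP6, and above them for DUSP5.

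DUSP6, a cytoplasmic phosphatase selective for ERK, had the largest difference of the 10. It was 6.63, 6.59, 6.65 and 6.57 in control libraries 1 to 4 and 5.26, 5.45, 6.62 and 6.55 in knockout libraries 1 to 4. Knockout libraries 1 and 2 were thus far below every other library, knockout library 3 lay among the controls and knockout library 4 just under the lowest of them. Control libraries averaged 6.61 ± 0.04 and knockout libraries 5.97 ± 0.71 (SD, n = 4 each), a difference of -0.64 (95% interval -1.33 to 0.04; limma adjusted p = 0.194). Within replicates 1 and 2 it was -1.26, which is 41.8% of the control level, and within replicates 3 and 4 it was -0.03, or 98.2% of the control level. The gene lies on chromosome 12 (89347232 to 89353271, minus strand, GRCh38, GENCODE 29).

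DUSP4, a nuclear phosphatase of the same family, was 2.83, 2.93, 2.97 and 2.94 in control libraries 1 to 4 and 2.34, 2.53, 3.22 and 3.13 in knockout libraries 1 to 4. The knockout libraries lay on both sides of the controls, with 1 and 2 below and 3 and 4 above all of them. Over all libraries the log2 fold change was -0.11 (95% interval -0.54 to 0.32; limma adjusted p = 0.740), with -0.44 for replicates 1-2 and 0.22 for replicates 3-4. DUSP5, a nuclear phosphatase that also anchors ERK in the nucleus, went the other way. It was 6.48, 6.49, 6.75 and 6.58 in the controls and 6.88, 6.84, 6.49 and 6.43 in the knockouts. Here knockout libraries 1 and 2 were the highest of the 8 and knockout library 4 was the lowest. Its log2 fold change was 0.09 (95% interval -0.19 to 0.37; limma adjusted p = 0.671), with 0.38 in replicates 1 and 2 and -0.20 in replicates 3 and 4. The DUSP family members on the list therefore did not share a direction in the libraries where they changed most.

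SPRED1, a membrane-bound inhibitor that brings the RAS-inactivating protein neurofibromin to RAS, followed the pattern of DUSP4. It was 4.56, 4.42, 4.52 and 4.46 in the controls and 3.84, 4.01, 4.83 and 4.68 in the knockouts, so knockout libraries 1 and 2 were below and 3 and 4 above every control. Over all libraries it had a log2 fold change of -0.15 (95% interval -0.63 to 0.34; limma adjusted p = 0.684), with -0.56 in replicates 1 and 2 and 0.27 in replicates 3 and 4. Its relative SPRED2 was 2.21, 2.12, 2.48 and 2.33 in the controls and 1.79, 2.01, 2.52 and 2.45 in the knockouts. Again libraries 1 and 2 of the knockout were the lowest, while library 3 was the highest of the 8 and library 4 lay under the highest control only. The log2 fold change of SPRED2 was -0.09 (95% interval -0.48 to 0.29; limma adjusted p = 0.747), with -0.27 for replicates 1-2 and 0.08 for replicates 3-4.

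The Sprouty genes, which encode inducible inhibitors of receptor signalling to RAS and RAF, differed least. SPRY2 was 3.46, 3.45, 3.68 and 3.60 in the controls and 3.32, 3.33, 3.64 and 3.66 in the knockouts. SPRY4 was 3.29, 3.24, 3.57 and 3.42 in the controls and 3.12, 3.20, 3.42 and 3.51 in the knockouts. For both genes the higher libraries were those of replicates 3 and 4 in either group, knockout libraries 1 and 2 were the lowest, and the groups overlapped. The log2 fold changes over all libraries were -0.06 for SPRY2 (95% interval -0.30 to 0.18; limma adjusted p = 0.736) and -0.07 for SPRY4 (95% interval -0.32 to 0.18; limma adjusted p = 0.723). Replicates 1-2 gave -0.13 for SPRY2 and -0.11 for SPRY4, and replicates 3-4 gave 0.01 and -0.02. A change of SPRY2 or SPRY4 by 0.5 log2 units in either direction lies outside these intervals.

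Among the transcription factors, ETV5 was the one gene of the 10 whose groups were apart. It was 5.07, 5.06, 5.14 and 5.14 in the controls and 4.72, 4.81, 4.97 and 5.02 in the knockouts, so every knockout library was below every control. The difference was small: 5.10 ± 0.04 against 4.88 ± 0.14 (SD, n = 4 each), or -0.22 as a log2 fold change (95% interval -0.40 to -0.04; limma adjusted p = 0.108). Replicates 1-2 gave -0.30 and replicates 3-4 gave -0.14. ETV4 was 4.40, 4.42, 4.52 and 4.39 in the controls and 3.98, 3.93, 4.57 and 4.63 in the knockouts. Knockout libraries 1 and 2 were below all controls and 3 and 4 above them, which gave a log2 fold change of -0.16 (95% interval -0.53 to 0.22; limma adjusted p = 0.573), with -0.46 in replicates 1 and 2 and 0.15 in replicates 3 and 4. ETV4 overlaps DHX8 on the opposite strand and ETV5 overlaps DGKG on the same strand in GENCODE 29. DHX8 had a mean log2 value of 2.95 and DGKG of -2.27. The library kit was stranded, but whether counting used the strand is not given in the sources used here, so reads of ETV4 and DHX8 may not be fully separated.

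PHLDA1, a pleckstrin-homology-like protein whose transcript is part of common ERK activity signatures, was 4.59, 4.51, 5.03 and 4.76 in the controls and 4.17, 4.17, 4.58 and 4.63 in the knockouts. Each knockout library was below the control of the same number, and knockout libraries 3 and 4 lay within the range of the controls. For PHLDA1 the log2 fold change was -0.34 (95% interval -0.68 to 0.01; limma adjusted p = 0.178), of similar size in replicates 1 and 2 (-0.38) and in replicates 3 and 4 (-0.29). With a term for replicates 1-2 against 3-4 in the model, PHLDA1 (limma adjusted p = 0.0129) and ETV5 (limma adjusted p = 0.0283) passed the threshold, both lower, and the other 8 did not. In that fit 25.2% of all tested genes were called and 11.4% were called lower.

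**Figure D2:**
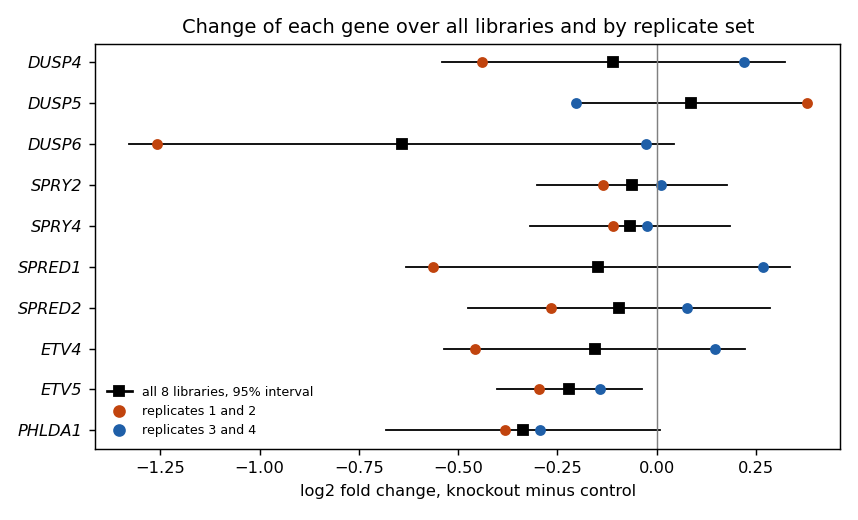
Log2 fold change (knockout minus control) of each ERK feedback gene over all 8 libraries with its 95% interval (squares), within replicates 1 and 2 (red circles) and within replicates 3 and 4 (blue circles). For PHLDA1, ETV5, SPRY4 and DUSP6 both sets lie below 0, and for DUSP4, SPRED1, SPRED2, ETV4, SPRY2 and DUSP5 they lie on opposite sides of 0.

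Within replicates 1 and 2 alone, 9 of the 10 genes passed the threshold of limma, 8 lower and DUSP5 higher, and SPRY4 did not (limma adjusted p = 0.118). The background in this comparison was high: 59.7% of all tested genes were called, and 26.6% were called lower. The median log2 fold change of the 10 genes was -0.34, against 0.03 over all tested genes. Between the most and the least changed of the called genes the level was 41.8% of the control for DUSP6, 67.7% for SPRED1, 72.8% for ETV4, 73.8% for DUSP4 and 91.2% for SPRY2. DUSP5 was at 130% of the control. Within replicates 3 and 4 alone, 0 of the 10 were called, against 33.1% of all tested genes, with 17.4% of all tested genes called lower. Their median log2 fold change was -0.01 there, and the lowest limma adjusted p-values were 0.0550 for SPRED1 (0.27) and 0.0707 for PHLDA1 (-0.29). Each of these fits has 2 knockout and 2 control libraries, and its spread comes only from libraries of the same group and set. The SD of the difference was 0.10 for control libraries 1 and 2 and 0.19 for control libraries 3 and 4. Control library 4 was closer to control libraries 1 and 2 (0.15 and 0.13) than to control library 3. The spread of the controls was thus unequal, and the numbers called are not compared between these fits.

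The difference between the replicate sets was itself tested, as an interaction of group and set in limma over all 8 libraries. It passed the threshold for 5 of the 10 genes, which is near the background of 41.3% of all tested genes. For DUSP6 the log2 fold change in replicates 3 and 4 exceeded that in replicates 1 and 2 by 1.23 (95% interval 0.99 to 1.48; limma adjusted p = 9.946e-05). The same difference was 0.83 for SPRED1 (limma adjusted p = 0.00103), 0.66 for DUSP4 (0.00199) and 0.60 for ETV4 (0.00144). It was -0.58 for DUSP5 (limma adjusted p = 0.00221), the opposite sign. For SPRED2 it was 0.34 (limma adjusted p = 0.0559). For PHLDA1 the interval of the difference was -0.19 to 0.37, for SPRY4 -0.15 to 0.32, for SPRY2 -0.05 to 0.34 and for ETV5 -0.04 to 0.35, all including 0. These p-values take the members of a close pair as independent, which the labels do not settle beyond calling the libraries biological replicates. The labels name no property that separates replicates 1 and 2 from 3 and 4, and what sets them apart was not tested.

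**Figure D3:**
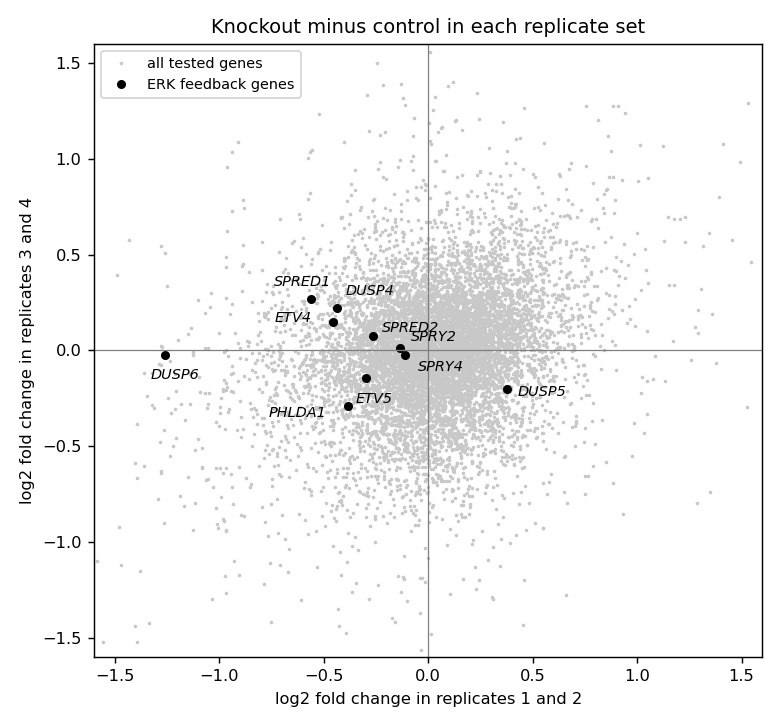
Log2 fold change (knockout minus control) within replicates 1 and 2 (horizontal axis) and within replicates 3 and 4 (vertical axis) for all tested genes (grey, 53 of them outside the axes) and the ERK feedback genes (black, named). DUSP6 lies at -1.26 and -0.03, far to the left and near 0 on the vertical axis, and DUSP5 lies to the right of 0.

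Across the 8 libraries the profiles of most of the genes resembled one another. Pearson's r with DUSP6 was 0.93 for ETV4 and ETV5, 0.92 for SPRED1, 0.90 for DUSP4, 0.84 for PHLDA1, 0.83 for SPRED2, 0.81 for SPRY2, 0.74 for SPRY4 and -0.83 for DUSP5. SPRY2 and SPRY4 were most like each other (r = 0.97), as were DUSP4 and SPRED1 (r = 0.97). These 8 points include the close pairs of knockout libraries, so the values describe the split among the knockout libraries and carry no p-value. The 5 tested genes most like DUSP6 by Pearson's r over the same 8 libraries were DDR1, SYNJ2, ZCCHC24, LTBP2 and KLHL4, with r between 0.994 and 0.998. DDR1, which encodes a collagen-binding receptor tyrosine kinase, changed by -1.27 on the log2 scale in replicates 1-2 and by 0.02 in replicates 3-4. LTBP2, an extracellular matrix protein, had -1.13 and -0.02.

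The relatives of these genes were taken from a list of 14 (other DUSPs that dephosphorylate MAP kinases, SPRY1, SPRY3, SPRED3, ETV1, PHLDA2 and PHLDA3). Of these, 7 passed the filter on low values, and limma called none of the 7 over all libraries, against 13.1% of all tested genes. At an unadjusted p under 0.05 limma gave 1 of the 7, against 29.7% of all tested genes. The median log2 fold change of the 7 was 0.10. DUSP1, an immediate early phosphatase that acts on p38, JNK and ERK, is singled out after its values were seen. It was 2.86, 2.96, 4.05 and 3.38 in the controls and 4.72, 4.50, 3.84 and 3.82 in the knockouts, so knockout libraries 1 and 2 were the highest. For DUSP1 the log2 fold change was 0.91 (95% interval 0.23 to 1.59; limma adjusted p = 0.0804), with 1.71 in replicates 1 and 2 and 0.12 in replicates 3 and 4 (interaction, limma adjusted p = 0.00138). The controls themselves differed between replicate sets, with control libraries 3 and 4 above 1 and 2. Without control library 3 the limma adjusted p of DUSP1 was 0.0275, and no other fit that left out 1 library called it. Nor was it called with the replicate block (limma adjusted p = 0.145) or with averaged knockout pairs (0.217). The phosphatase transcripts DUSP1 and DUSP5 were thus high in the knockout libraries in which DUSP6 and DUSP4 were low. The relatives did not share that direction. Within replicates 1 and 2 alone 4 of the 7 were called, 2 higher and 2 lower, against 59.7% of all tested genes. The 2 lower, also named after their values were seen, were ETV1 (-0.70) and PHLDA2 (-0.48), with 0.17 and -0.01 in replicates 3 and 4. DUSP2, below the filter on low values, was called without that filter (log2 fold change 1.37, limma adjusted p = 0.0149).

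In the cascade itself, from receptor adaptors to ERK and its downstream kinases, 28 of 34 listed genes were tested and 2 were called, both lower, of which NRAS is described. That is 7.14%, against 13.1% of all tested genes and 6.1% called lower. The list median was -0.05, and 18 of 28 log2 fold changes were below 0. NRAS, a RAS GTPase, was 5.49, 5.32, 5.22 and 5.28 in the controls and 5.01, 4.99, 4.73 and 4.55 in the knockouts, which is -0.51 as a log2 fold change (limma adjusted p = 0.0265). Every knockout library was below every control, with -0.41 for replicates 1-2 and -0.61 for replicates 3-4. With knockout libraries 1 and 2 averaged and 3 and 4 averaged, its limma adjusted p was 0.105, and no gene of the list was called. Without control library 4 no gene of the list was called, and without control library 1, control library 2 or knockout library 3 the count was 1 and NRAS was not called (limma adjusted p = 0.0649 to 0.0844 without 1 of these 4 libraries). A block on the replicate number gave 3 called genes, RRAS among them (log2 fold change -0.47; limma adjusted p = 0.0266 with the block and 0.0534 without it).

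Kinases that carry the signal, named after their values were seen, showed no call over all 8 libraries. MAPK3, which encodes ERK1, averaged 2.73 ± 0.15 in control and 2.95 ± 0.06 in knockout libraries (SD, n = 4 each; log2 fold change 0.22, 95% interval 0.02 to 0.42; limma adjusted p = 0.127), with 0.23 for replicates 1-2 and 0.21 for replicates 3-4. MAP2K1, which encodes MEK1, had control values of 4.58, 4.59, 4.22 and 4.49 and knockout values of 4.18, 4.17, 4.62 and 4.63. Replicates 1-2 gave -0.42 and replicates 3-4 gave 0.27 (interaction, limma adjusted p = 0.0024). The rise in replicates 3-4 was not called in that set alone (limma adjusted p = 0.0844). Control library 3 was the lowest control, and knockout libraries 3 and 4 lay only just above control libraries 1 and 2.

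Of 35 listed transcription factors and other output genes placed downstream of ERK, 28 were tested and 8 were called, 7 lower and 1 higher. The list includes factors that ERK phosphorylates, such as ETS1, so a transcript on it need not report ERK output. The share called was 28.6%, against 13.1% of all tested genes, with 6.1% called lower and 7.02% higher. The list median was -0.25, and 22 of 28 log2 fold changes were below 0. EGR1, the immediate early zinc finger factor induced through serum response elements, had the largest fall among the tested genes of the list. It was 2.91, 2.72, 2.46 and 2.64 in the controls and 0.76, 1.07, 1.75 and 1.98 in the knockouts, which is a fall by 1.29 on the log2 scale (limma adjusted p = 0.0155). All 4 knockout libraries were below all controls, and the change was larger in replicates 1 and 2 (-1.90) than in replicates 3 and 4 (-0.69; interaction, limma adjusted p = 0.000889). EGR1 was not called with averaged knockout pairs (limma adjusted p = 0.0642) or without control library 1, 2 or 4 (0.0535 to 0.0553). Its relative EGR2, below the filter on low values, was called without that filter (log2 fold change -2.29, limma adjusted p = 0.0335).

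JUNB, an AP-1 subunit, was the most even of the called genes. It was 4.35, 4.40, 4.21 and 4.39 in the controls and 3.62, 3.63, 3.61 and 3.65 in the knockouts, which is -0.71 as a log2 fold change (limma adjusted p = 0.00117). Replicates 1-2 gave -0.75 and replicates 3-4 gave -0.67. KLF2, a Krüppel-like factor, averaged 3.66 ± 0.07 in control and 3.00 ± 0.09 in knockout libraries (SD, n = 4 each) and fell by 0.66 on the log2 scale (limma adjusted p = 0.00176), with -0.60 for replicates 1-2 and -0.72 for replicates 3-4. JUNB and KLF2 were called in each fit that left out 1 library and with the knockout pairs averaged (limma adjusted p = 0.0270 and 0.0315). TRIB1, a pseudokinase that recruits MEK1 and an ubiquitin ligase, fell by 0.79 and ETS1, an ETS factor phosphorylated by ERK, fell by 0.50 (limma adjusted p = 0.0258 and 0.0222). Both changed more in replicates 1-2 (-0.97 and -0.67) than in replicates 3-4 (-0.61 and -0.33; interaction, limma adjusted p = 0.0153 and 0.0316). TRIB1 was not called without any 1 of the control libraries or knockout library 2 (limma adjusted p = 0.0510 to 0.0805), nor ETS1 without control library 1, 2 or 4 (0.0648 to 0.0759), and neither was with averaged knockout pairs (0.0947 and 0.0842). The other 3 called genes are named after their values were seen: MCL1 (-0.39) and the ETS factor ELK1 (-0.25) were lower and ETS2 (0.39) was higher. Replicates 1-2 and 3-4 gave -0.29 and -0.49 for MCL1, -0.20 and -0.31 for ELK1, and 0.64 and 0.14 for ETS2 (interaction of ETS2, limma adjusted p = 0.00255). MCL1 was not called without control library 4 (limma adjusted p = 0.0515). ELK1 was not called in any of the 8 fits that left out 1 library (limma adjusted p = 0.0573 to 0.122), nor ETS2 in the 6 fits without control library 1, 2 or 4 or knockout library 1, 2 or 4 (0.0509 to 0.126). ELK1 and ETS2 were not called with the replicate block (limma adjusted p = 0.0879 and 0.0989). The number called on this list was 3 without control library 1 or 2, 2 without control library 4 and 2 with averaged knockout pairs. Groups did not overlap for 12 of the 28 tested genes of the list, 9 lower and 3 higher, against 22.9% of all tested genes. EGR1 and JUNB were among the 9.

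CCND1, the cyclin D1 gene and a late output of ERK, is named after its values were seen. It averaged 7.11 ± 0.09 in control and 7.04 ± 0.05 in knockout libraries (SD, n = 4 each; log2 fold change -0.08, 95% interval -0.23 to 0.08; limma adjusted p = 0.480), with -0.06 for replicates 1-2 and -0.10 for replicates 3-4. FOSL1, the gene of the AP-1 subunit FRA1, had a log2 fold change of -0.09 (95% interval -0.33 to 0.14; limma adjusted p = 0.575), with 0.06 for replicates 1-2 and -0.25 for replicates 3-4. EPHA4, often grouped with the feedback genes as an ERK output, had -1.28 in replicates 1 and 2 and 0.55 in replicates 3 and 4 (interaction, limma adjusted p = 0.000134). FOS and MYC, also named after their values were seen, were not called over all 8 libraries (limma adjusted p = 0.9196 and 0.9149). FOS was 2.15, 2.29, 5.17 and 3.97 in control libraries 1 to 4, so the controls themselves differed between replicate sets. Its log2 fold change was -0.57 in replicates 1-2 and 1.004 in replicates 3-4 (interaction, limma adjusted p = 0.0269). MYC had 0.58 and -0.69 (interaction, limma adjusted p = 5.236e-05).

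Among the ligands that activate ERK through receptor tyrosine kinases, 6 of 20 listed genes were tested and 2 were called. That is 33.3% of only 6 genes, against 13.1% of all tested genes. KITLG, the ligand of KIT, was 0.60, 0.57, 1.12 and 0.78 in the controls and 2.82, 2.79, 2.22 and 1.90 in the knockouts. It averaged 0.77 in the controls, below the filter of 1, and 2.43 in the knockouts, so it passed that filter only through the knockout libraries. Its place among the tested ligands, and so the share called, depends on that difference. Without the filter its limma adjusted p was 0.00989. All knockout libraries were above all controls, with a log2 fold change of 1.67 (limma adjusted p = 0.00420). It was larger in replicates 1-2 (2.22) than in replicates 3-4 (1.11; interaction, limma adjusted p = 0.00144). PDGFC, a platelet-derived growth factor, was lower, with a log2 fold change of -0.49 (-0.43 for replicates 1-2 and -0.54 for replicates 3-4; limma adjusted p = 0.0242), and was not called without control library 1, 2 or 4 or knockout library 3 (limma adjusted p = 0.0603 to 0.0791), which left 1 call on the list. The median of the 6 was 0.03. With averaged knockout pairs 1 ligand gene was called, KITLG (limma adjusted p = 0.0299). Without the filter on low values 4 were called, the 2 others being NRG1 (1.02) and FGF1 (2.07), both higher and both at low levels.

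**Figure D4:**
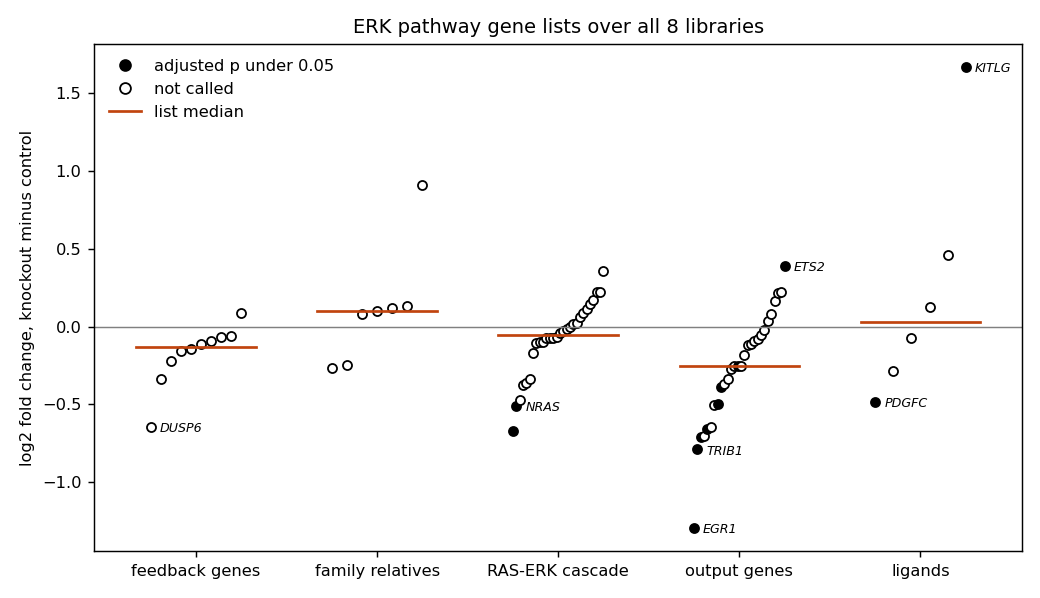
Log2 fold change (knockout minus control, all 8 libraries) of every tested gene of each ERK pathway list, ordered by size within a list, with called genes filled and the list median as a line. No feedback gene or family relative is filled, and 7 of the 8 filled output genes lie below 0.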

How the data were processed

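RNA-seq of 8 libraries (4 control, 4 knockout) was deposited as 1 table of log2 values per gene symbol. The labels' protocols name TRIzol extraction and a stranded total-RNA kit. Per the submitters' processing notes bcl2fastq, Partek 7.0 and GRCh38 were used. The aligner, counting rule, unit before the logarithm and treatment of blank cells are not given in the sources used here. Base 2 is an inference from their range. All libraries had the same median (1.77) and highest value (12.1), which shows quantile normalization of the deposited log2 values, so a shift of most genes in 1 direction cannot be seen in them. No counts are given and the depth is unknown, so levels are not compared between genes.

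Columns were matched to samples by their description labels. The 9016 of 54174 symbols that had no blank cell and averaged 1 or more were tested with limma 3.58.1 (lmFit, eBayes without trend; R 4.3.3), knockout minus control, with Benjamini-Hochberg adjustment over all of them and a threshold of 0.05. The interaction of group and replicate set (1-2 or 3-4) was fitted in the same way. The fits were tested on simulated data in which all libraries were independent. Those data held no close pairs, so the test does not show how the p-values behave with such pairs. Same-numbered control and knockout libraries deviated together (correlation 0.20 to 0.29 in the 4 pairs), and each result was refitted with replicate number as a block. It is printed where it changed a call. Other alternatives were the filter, scaling, a pseudocount of 1, a variance trend, a set term, averaged knockout pairs, single sets, a threshold of 0.01 and leaving out each library.

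The members and the lists were chosen with earlier results of these data known. Genes named by rule were NELL1, the 10 members, up to 5 called genes of each other list with the largest change, and the 5 most like DUSP6. Results for some genes of the cascade list are not reported here. Gene positions and overlaps came from GENCODE 29 and promoters from RefSeq. Figures were drawn with matplotlib 3.10.9.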

Additional observations from a re-analysis of the deposited data

Results flagged for a closer look

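The knockout effect differed between replicates 1-2 and replicates 3-4 for 5 of the 10 feedback genes, by the interaction test in limma. The log2 fold change in replicates 3-4 minus that in replicates 1-2 was 1.23 for DUSP6, 0.83 for SPRED1, 0.66 for DUSP4, 0.60 for ETV4 and -0.58 for DUSP5. Such a difference was also called for 41.3% of all tested genes.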

How the results depend on the processing

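The feedback genes called were 0 over all libraries and stayed at 0 in each fit that left out 1 library and under every filter, scaling, pseudocount and variance-trend setting tried, with the replicate block, with averaged knockout pairs and at the threshold of 0.01. They were 2 with a term for replicates 1-2 against 3-4 and 9 in replicates 1-2 alone. In replicates 3-4 alone the sign was the opposite of that over all libraries for DUSP4 (0.22), DUSP5 (-0.20), SPRY2 (0.011), SPRED1 (0.27), SPRED2 (0.077) and ETV4 (0.15). Leaving out 1 library moved the log2 fold change of DUSP6 between -0.86 and -0.41, and those of DUSP4 (-0.25 to 0.046), SPRED1 (-0.31 to 0.021) and SPRED2 (-0.20 to 0.040) changed sign without knockout library 1. The genes called over the whole table (1183) were 924 with the replicate block, 729 at a mean of at least 3, 2274 with the set term, 108 with averaged pairs, 5380 in replicates 1-2, 2987 in replicates 3-4, 272 at 0.01 and 391 to 1353 when 1 library was left out. The cascade list (2) gave 4 with the set term, 0 with averaged pairs, 15 in replicates 1-2, 7 in replicates 3-4, 0 at 0.01 and 0 to 3 when 1 library was left out. The output list (8) gave 13 with the set term, 2 with averaged pairs, 23 in replicates 1-2, 15 in replicates 3-4, 2 at 0.01 and 2 to 7 when 1 library was left out. The ligand list (2) gave 4 without a filter, 0 at a mean of at least 3, 1 with averaged pairs, 6 in replicates 1-2, 4 in replicates 3-4, 1 at 0.01 and 1 to 2 when 1 library was left out. The family list (0) gave 1 without a filter (DUSP2), 4 in replicates 1-2 and 0 to 1 when 1 library was left out. The interaction was called for 5 to 6 of the 10 genes when 1 library was left out, a fit in which the lone library of a set is assumed to vary like the others. Of the 5 genes most like DUSP6, 2 stayed at a mean of at least 3 and 2 to 4 when 1 library was left out. With the replicate block no call of a feedback gene changed. The alternatives for the interaction, for the likeness to DUSP6 and for single genes outside the 10 were chosen after seeing the data. The cause of these shifts was not tested.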
